A study of Mus musculus with 2 samples.

Results

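The Krüppel-like factors (KLFs) are transcription factors that share a DNA-binding domain of C2H2 zinc fingers at the C-terminal end, through which they bind CACC boxes and related GC-rich sites. The 10 genes described here, Klf1, Klf2, Klf3, Klf4, Klf6, Klf8, Klf9, Klf10, Klf11 and Klf13, were matched by symbol among the 43346 mouse genes of the deposited tables, and all 10 were found. They carry 21 of the 103639 listed transcripts. KLF1 is the erythroid activator that switches on adult beta-globin and many genes of heme synthesis, membrane skeleton and cell cycle exit. KLF3 and KLF8 are repressors that recruit CtBP, and the Klf3 and Klf8 genes are themselves activated by KLF1 in red cell precursors. KLF9, KLF10, KLF11 and KLF13 recruit the Sin3A corepressor, and KLF2, KLF4 and KLF6 are best known from lymphocytes, vessels and epithelia.

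RNA came from G1E-ER4 cells, a mouse erythroid progenitor line derived from Gata1-null embryonic stem cells. A stably introduced transgene supplies GATA1 as a fusion with the hormone-binding part of the estrogen receptor, and the cells had been given 10 nM 17beta-estradiol for 3 h to switch the fusion on. The design holds 1 group with 2 libraries of polyadenylated RNA, replicate 1 and replicate 2. The labels number them as biological replicates but give both the same biosample record, and do not say whether they came from separate cultures, so their spread may be biological or technical. No library without estradiol was analysed here, so the values are levels at 3 h and not responses to estradiol. The factor is driven by a transgene and the line is immortalised, which limits it as a model of red cell precursors.

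The libraries held 31126956 (replicate 1) and 57853617 (replicate 2) expected counts. Gata1 itself stood at 190.31 TPM in the library of replicate 1 and 798.88 TPM in that of replicate 2. Whether those fragments came from the fusion or from the disrupted gene was not tested. TPM is a level corrected for transcript length and scaled to the same total in each library. Of 10 erythroid marker genes, 9 reached 1 TPM in both libraries, all except the membrane protein gene Epb42, beside 20.2% of all genes. The globin genes Hba-a1 and Hbb-bs summed to 1012 TPM in replicate 1, against 16090 TPM in replicate 2. The other 8 erythroid markers summed to 419 TPM in replicate 1, against 395 TPM in replicate 2. Of 6 megakaryocyte markers, Itga2b and Gp1ba reached 1 TPM in both libraries. Lists of 6 markers each for mast cells and basophils, granulocytes and monocytes, lymphocytes, endothelium, stroma and epithelium had no gene at that level in both, and the highest stood at 0.70 TPM.

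The zinc fingers are what the family has in common, and their coding sequence was read from the GENCODE M21 transcripts on GRCm38. All 10 genes code for 3 fingers in a region of 81 codons, 243 bases. The third finger is shown for 4 pairs of genes whose fingers are close but whose levels, given further on, are far apart or follow different transcripts. The capitals mark the codons of the 2 cysteines and 2 histidines that hold the zinc ion. The stretches lie at chr8:84904871-84904933 (Klf1, plus strand), chr8:72320851-72320913 (Klf2, plus strand), chr5:64829084-64829146 (Klf3, plus strand), chrX:153392794-153392856 (Klf8, plus strand), chr19:23164790-23164852 (Klf9, plus strand), chr7:63891628-63891690 (Klf13, minus strand), chr15:38295995-38296057 (Klf10, minus strand) and chr12:24660290-24660352 (Klf11, plus strand), all in coding exons.
Klf1: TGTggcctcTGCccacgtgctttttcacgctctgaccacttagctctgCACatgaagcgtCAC
Klf2: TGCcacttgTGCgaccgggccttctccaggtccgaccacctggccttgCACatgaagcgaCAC
Klf3: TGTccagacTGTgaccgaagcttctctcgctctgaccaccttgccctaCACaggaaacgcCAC
Klf8: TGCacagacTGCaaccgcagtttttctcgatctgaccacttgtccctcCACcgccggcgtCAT
Klf9: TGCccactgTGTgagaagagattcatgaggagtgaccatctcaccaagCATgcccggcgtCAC
Klf13: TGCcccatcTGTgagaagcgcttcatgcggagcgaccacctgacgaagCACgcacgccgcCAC
Klf10: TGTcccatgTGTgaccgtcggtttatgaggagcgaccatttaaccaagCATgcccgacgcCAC
Klf11: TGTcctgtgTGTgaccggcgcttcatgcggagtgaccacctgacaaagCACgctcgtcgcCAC

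Over the whole finger region, the closest pair was Klf2 and Klf4, with 78.2% identical bases, followed by Klf10 and Klf11 with 76.1% and Klf3 and Klf8 with 75.3%. Klf1 and Klf2 shared 74.9%, and Klf9 and Klf13 shared 72.8%. The least alike were Klf1 and Klf9, with 55.6%. The 15 pairs among Klf1, Klf2, Klf3, Klf4, Klf6 and Klf8 shared 65.0% to 78.2%, and the 6 pairs among the Sin3A-recruiting genes Klf9, Klf10, Klf11 and Klf13 shared 64.6% to 76.1%. The 24 pairs between those sets shared 55.6% to 65.8%. Runs of 31 identical bases were rare between genes. Klf1, Klf2, Klf6, Klf8 and Klf9 had no such run in common with any other annotated gene, and in the other 5 genes between 0.241% (Klf10) and 2.00% (Klf4) of runs were shared. All 10 genes had whole expected counts in both libraries, within 0.005, so no fractional part of a fragment was assigned to them at gene level.

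**Figure D1:**
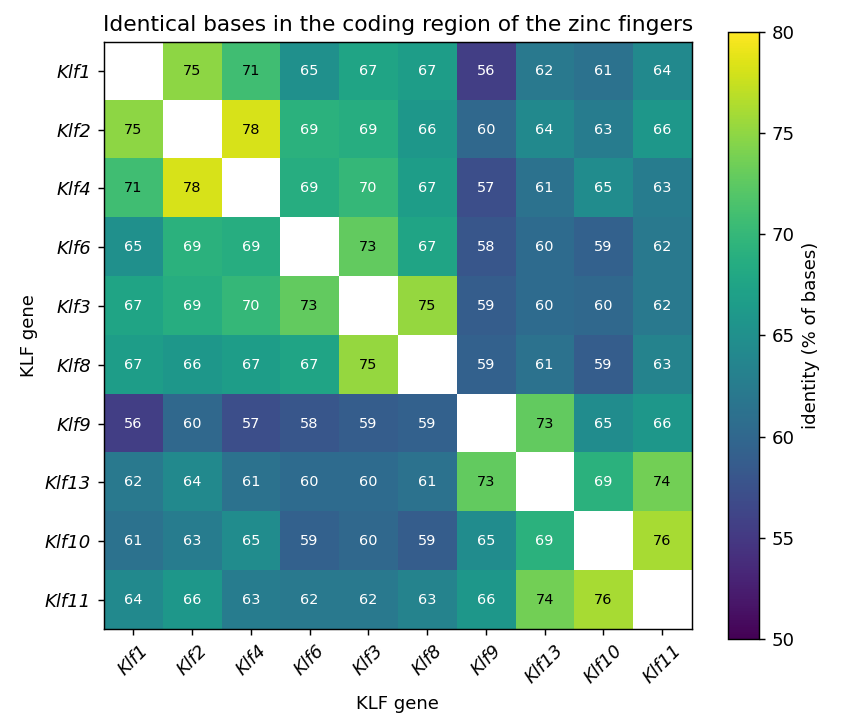
Percent of identical bases between each pair of KLF genes over the 243 bases that code for the 3 zinc fingers. Both axes list the 10 genes, the colour scale and the printed whole numbers give identity in percent, and the brighter blocks at the upper left and lower right are the sets within which pairs shared at least 64.6%, against at most 65.8% between the sets.

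Klf1 led the family by a wide margin, Klf13 and Klf3 followed, and Klf2, Klf4 and Klf8 were at or near 0. At 1 TPM or more in both libraries stood 6 of the 10 genes, Klf1, Klf13, Klf3, Klf9, Klf11 and Klf6. The background for this count is that 20.2% of all genes reached the same level, with a median of 20.91 TPM among those 8777 genes. Klf1, Klf13 and Klf3 were above that median, and Klf9, Klf11 and Klf6 below it. On gene TPM, the order from Klf1 down to Klf2 was the same in both libraries, and for every pair of neighbours in it the lower value of the higher gene exceeded the higher value of the lower gene.

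**Figure D2:**
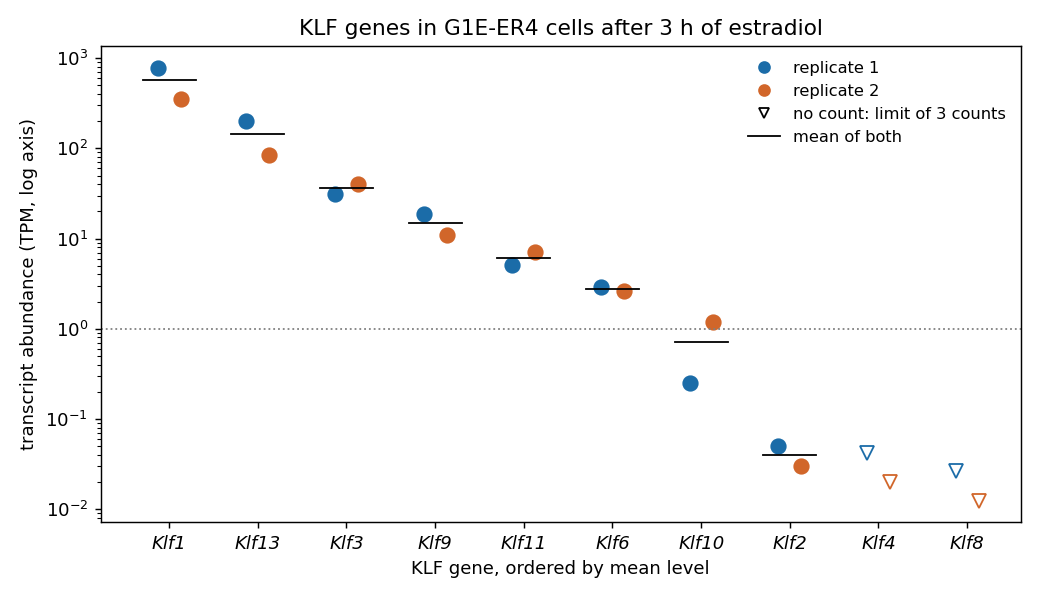
Level of each KLF gene in TPM on a log axis, with genes in order of their mean, a filled point for each library (replicate 1 left of replicate 2) and a line at the mean. Open triangles mark genes with no count, drawn at the level that 3 counts would give on their longest transcript, and the dotted line is 1 TPM: the levels run from 786.12 TPM for Klf1 in replicate 1 to 0.03 TPM for Klf2 in replicate 2.

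Klf1 (chr8:84901928-84905291, plus strand, 1 listed transcript) reached 786.12 TPM in replicate 1, against 350.50 TPM in replicate 2. It ranked 257th among all genes by mean level and stood above 97.1% of the genes detected in both libraries. The sum of the KLF genes was 1047.19 TPM in replicate 1, against 497.57 TPM in replicate 2, and Klf1 made up 75.1% and 70.4% of those sums. On counts, replicate 1 had 27252 fragments of Klf1 and replicate 2, the deeper library, had 25389.

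Klf13 (chr7:63886351-63938915, minus strand) codes for a factor that recruits Sin3A. It had 202.91 TPM in replicate 1 and 84.52 TPM in replicate 2, or 19.4% and 17.0% of the family sum. Its mean ranked 1098th among all genes.

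Klf3 (chr5:64803388-64832901, plus strand), the CtBP-dependent repressor, had 31.20 TPM in replicate 1 and 40.66 TPM in replicate 2. It made up 2.98% of the family sum in replicate 1 and 8.17% in replicate 2. The level of Klf1 was 25.2 times that of Klf3 in replicate 1 and 8.62 times in replicate 2, which gave a log2 ratio of TPM, with 1 added to each value, of 3.84 ± 1.09 (SD, n = 2). Even if the 2 values of each gene were taken as unpaired, no exact permutation test could go below p = 0.33. Ratios between genes, taken within each library, were therefore not tested.

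Klf9 (chr19:23141226-23168134, plus strand), a Sin3A-recruiting factor known as a glucocorticoid target, had 18.67 TPM in replicate 1 and 11.01 TPM in replicate 2. Its level was below that of Klf13, the paralog with the closest fingers, by a log2 ratio of -3.10 ± 0.38 (SD, n = 2). Both libraries showed this order, with log2 ratios of -3.37 in replicate 1 and -2.83 in replicate 2. Counting only transcripts that code for all 3 fingers, described further on, the ratios were smaller in size, at -1.70 in replicate 1 and -2.00 in replicate 2.

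Klf10 and Klf11 are the TGF-beta-inducible members, and both were low. Klf11 (chr12:24651274-24662789, plus strand) had 5.06 TPM in replicate 1 and 7.02 TPM in replicate 2. Klf10 (chr15:38291463-38300706, minus strand) had 0.25 TPM from 18 fragments in replicate 1 and 1.19 TPM from 181 fragments in replicate 2. Klf10 was the lower of the pair in both libraries, with log2 ratios to Klf11 of -2.28 and -1.87, or -1.95 and -0.59 on transcripts that code for all 3 fingers.

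Klf6 (chr13:5861482-5870394, plus strand), a widely expressed activator, had 2.93 TPM in replicate 1 and 2.64 TPM in replicate 2. On TPM these were the closest values between libraries among the detected members, at 2.79 ± 0.205 TPM (SD, n = 2). Only 9.45% of the genes detected in both libraries had a lower mean.

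The remaining genes were not detectable above a few fragments. Klf2 (chr8:72319033-72321656, plus strand), which keeps lymphocytes and endothelium quiescent, had 2 fragments in replicate 1 and 3 in replicate 2, or 0.05 and 0.03 TPM. Klf4 (chr4:55527143-55532466, minus strand), a pluripotency and epithelial factor, was listed at 0 in both libraries, where 3 counts on its longest transcript would have given 0.0418 TPM in replicate 1 and 0.0199 TPM in replicate 2. Klf8 (chrX:153237466-153396132, plus strand) was also listed at 0 in both, where 3 counts on its longest transcript would have given 0.0262 TPM in replicate 1 and 0.0124 TPM in replicate 2. Short transcripts allow more: the upper bounds of the authors' intervals were 1.07 TPM in replicate 1 and 0.598 TPM in replicate 2 for Klf8-203 (247 bases), and 0.305 TPM in replicate 1 and 0.152 TPM in replicate 2 for Klf4-202 (522 bases), neither of which codes for a finger.

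Pairs with close fingers had very different levels. Klf1 was 16678 times as high as Klf2 in replicate 1 (95% exact counting interval 4616 to 137721) and 10380 times in replicate 2 (3551 to 50337). Klf3 had 31.20 TPM in replicate 1 and 40.66 TPM in replicate 2, against no fragment of Klf8 in either library, and no fold is given because the limit for Klf8 depends on which transcript is assumed. Klf2 and Klf4, the pair with the closest fingers, were both at or under 3 counts, so no ratio between them is given. Intervals and limits cover counting error only.

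The libraries differed from each other by more than counting noise for most genes, and the KLF genes were no exception. Expected counts, rounded and scaled by TMM library sizes, were compared by an exact binomial test, conditional on their sum and two-sided, with Benjamini-Hochberg adjustment over 10635 genes. The test compares these libraries, not conditions. Of all genes tested 80.4% passed at 0.05, 37.2% higher in replicate 1 and 43.1% higher in replicate 2. Of the KLF genes 7 had enough counts to be tested and 5 passed, 3 higher in replicate 1 (Klf1, Klf13 and Klf9) and 2 higher in replicate 2 (Klf3 and Klf10). A count of 5 of 7 is close to the background, and it was 5 with DESeq2 size factors, where 80.5% of all genes passed, and 6 with total counts, where 81.4% did.

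Klf1 was 1.77-fold higher in replicate 1 on scaled counts (log2 ratio 0.82), with an adjusted p in the exact binomial test too small to be represented. Of all genes tested, 35.5% had a larger ratio in either direction. Klf9 was 1.33-fold higher in replicate 1 (log2 ratio 0.41, adjusted p = 2.32e-15 in the exact binomial test), and Klf13 was 1.13-fold higher (log2 ratio 0.18, adjusted p = 2.15e-22). The ratio of Klf13 was small among all genes, with 83.8% of tested genes having a larger one.

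In the other direction, Klf3 was 1.33-fold higher in replicate 2 (log2 ratio -0.41, adjusted p = 4.40e-22 in the exact binomial test). Klf10 was 5.70-fold higher in replicate 2 (log2 ratio -2.51, adjusted p = 1.26e-19 in the same test), on 18 fragments in replicate 1 and 181 in replicate 2. It was the 1 tested KLF gene at least 2-fold apart on scaled counts, where 26.4% of all genes tested passed at that size, and 4.68% had a larger ratio than Klf10. Klf6 (log2 ratio -0.20, adjusted p = 0.0683 in the exact binomial test) and Klf11 (log2 ratio 0.10, adjusted p = 0.332) did not pass. With total counts in place of TMM library sizes, Klf11 passed, at a log2 ratio of 0.27 and an adjusted p of 0.00595. That scaling moved the median log2 ratio of all genes tested to 0.11, against -0.06 with TMM. No KLF gene changed its sign between the 3 scalings.

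**Figure D3:**
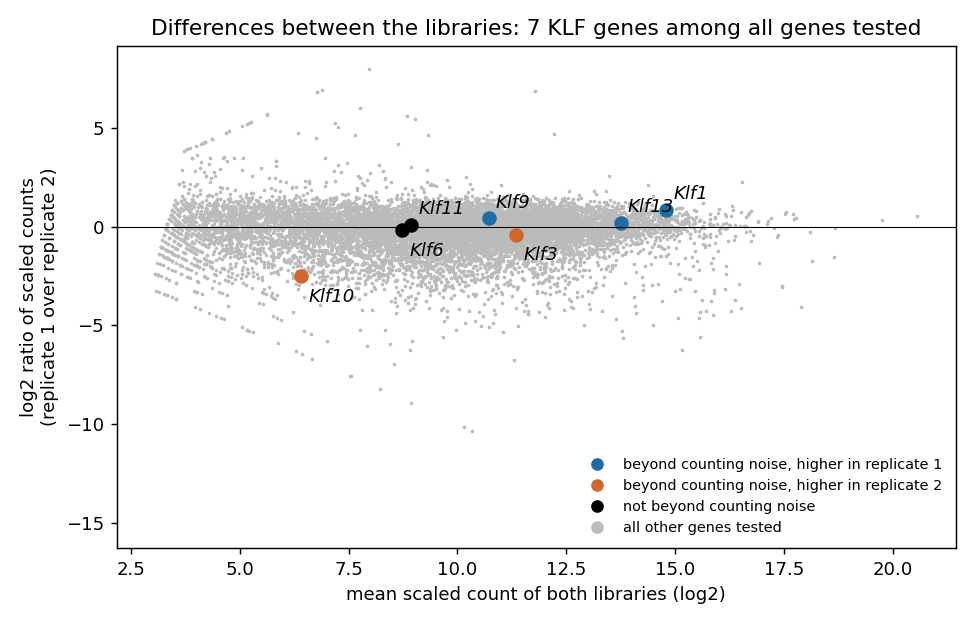
Log2 ratio of scaled counts (replicate 1 over replicate 2) against the log2 mean scaled count, with every gene tested in grey and the 7 tested KLF genes coloured by whether they passed the exact binomial test. Klf1 at 0.82, Klf9, Klf13, Klf3, Klf6 and Klf11 lie within the main cloud, and Klf10 at -2.51 lies near its lower edge.

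The library that had more Klf1 had less of Gata1 and of the globin markers. Gata1 had a log2 ratio of scaled counts of -2.41. The sums of Hba-a1 and Hbb-bs were the 1012 TPM and 16090 TPM given above. The other 8 erythroid markers had close sums, of which Tfrc gave 86.49 TPM in replicate 1 and 20.62 TPM in replicate 2. By the exact binomial test, 8 of the 10 erythroid markers passed as higher in replicate 2, and 1, Tfrc, as higher in replicate 1. Among all genes tested, 43.1% and 37.2% passed in those directions. The part of Gata1 and of these markers in the KLF differences was not tested.

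Transcripts added differences that the gene totals hide. Klf1, Klf2, Klf6, Klf9 and Klf10 have 1 listed transcript each. For Klf3, Klf11 and Klf13, the most abundant transcript was not the same in both libraries, and it was not the same by the authors' posterior mean either. The background is that the leading transcript differed between libraries for 26.9% of the 6389 detected genes with at least 2 listed transcripts.

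For Klf13, the transcript Klf13-201 (6400 bases) codes for all 3 fingers. It had 63.02 TPM in replicate 1 and 47.06 TPM in replicate 2. Klf13-204 (487 bases) starts 2614 bases downstream of Klf13-201, and its 156 annotated coding bases hold no complete finger. Its listed level was 139.89 TPM in replicate 1, against 37.42 TPM in replicate 2, which was 68.9% and 44.3% of the gene's TPM. Those levels rested on few fragments, 1216 of the 11008 in replicate 1 (11.0%) and 657 of the 16070 in replicate 2 (4.09%), because TPM divides by a short length. The authors' interval for Klf13-204 ran from 125 to 146 TPM in replicate 1 and from 31.7 to 41.9 TPM in replicate 2, so the libraries did not overlap.

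For Klf3, the division lay between transcripts whose models differ at both ends in GENCODE M21. There, Klf3-201 ends at chr5:64832901 and Klf3-202 at chr5:64829482. Klf3-201 begins with a noncoding exon at chr5:64803388-64803791, and Klf3-202 with another at chr5:64812339-64812503, 8951 bases downstream. Both transcripts have the same coding length of 1032 bases and all 3 fingers. Klf3-201 had 31.20 TPM in replicate 1 and 17.29 TPM in replicate 2. Klf3-202 was listed at 0 in replicate 1 and at 23.37 TPM in replicate 2, where it made up 57.5% of the gene's TPM. Replicate 1 had 1685 fragments of Klf3, and none was assigned to Klf3-202. Which end of the transcripts the assignment rested on was not tested. Klf3-201 measures 2314 bases in the deposited table and 5221 bases in GENCODE M21, so the deposited model left out part of the later one. Whether the models used for counting also differed at the downstream end was not examined.

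For Klf11, Klf11-201 codes for all 3 fingers and had 3.84 TPM in replicate 1 and 2.29 TPM in replicate 2. Klf11-204 (667 bases) has an annotated coding part without fingers and had 1.22 TPM in replicate 1 and 4.72 TPM in replicate 2. The authors' intervals for Klf11-204 overlapped, from 0.000124 to 2.57 TPM in replicate 1 and from 2.05 to 5.65 TPM in replicate 2. The intervals for Klf11-201 did not overlap, at 3.24 to 4.12 TPM and 2.02 to 2.51 TPM.

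**Figure D4:**
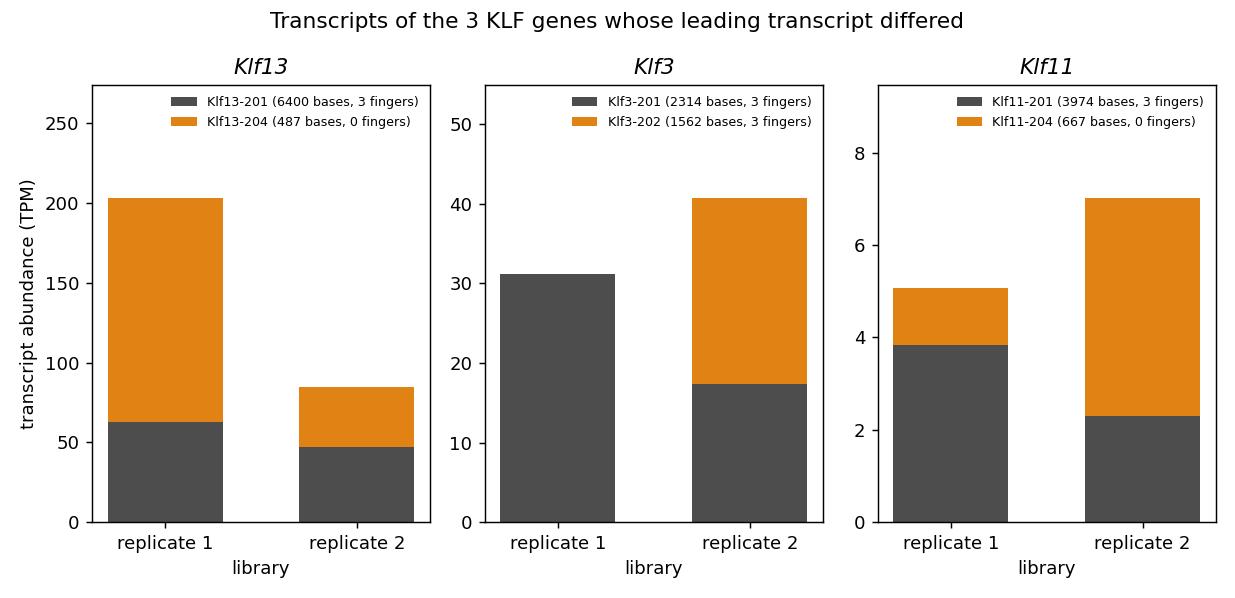
Stacked level in TPM of the transcripts of Klf13, Klf3 and Klf11 in each library, with 1 panel for each gene and replicate 1 left of replicate 2. Legends give each transcript's length and the number of complete zinc fingers in its annotated coding part. Klf13-204 at 139.89 TPM makes up most of the replicate 1 bar, and Klf3-202 appears in replicate 2 only.

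Counting only transcripts that code for all 3 fingers changed the balance of the family. Their sum was 906 TPM in replicate 1 and 455 TPM in replicate 2, of which Klf1 made up 86.8% and 77.0%. Klf13 made up 6.96% and 10.3% of this sum, below its 19.4% and 17.0% share of the total for genes. The ratio between libraries (replicate 1 over replicate 2) of such transcripts was 1.34 for Klf13, against 2.40 for the gene's TPM and 1.13 for its scaled counts. For Klf11 it was 1.68, against 0.72 for the gene's TPM and 1.07 for its scaled counts. The direction of Klf11 between the libraries thus depended on the measure, as did that of Klf6, at 1.11 on TPM against 0.87 on scaled counts. In the order of levels, Klf11 (3.84 TPM in replicate 1, 2.29 TPM in replicate 2) overlapped with Klf6 on this measure. On TPM, Klf1 at 2.24 and Klf13 at 2.40 were also at least 2-fold apart, as 32.3% of detected genes were, and the median gene had a ratio of 1.25.

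**Figure D5:**
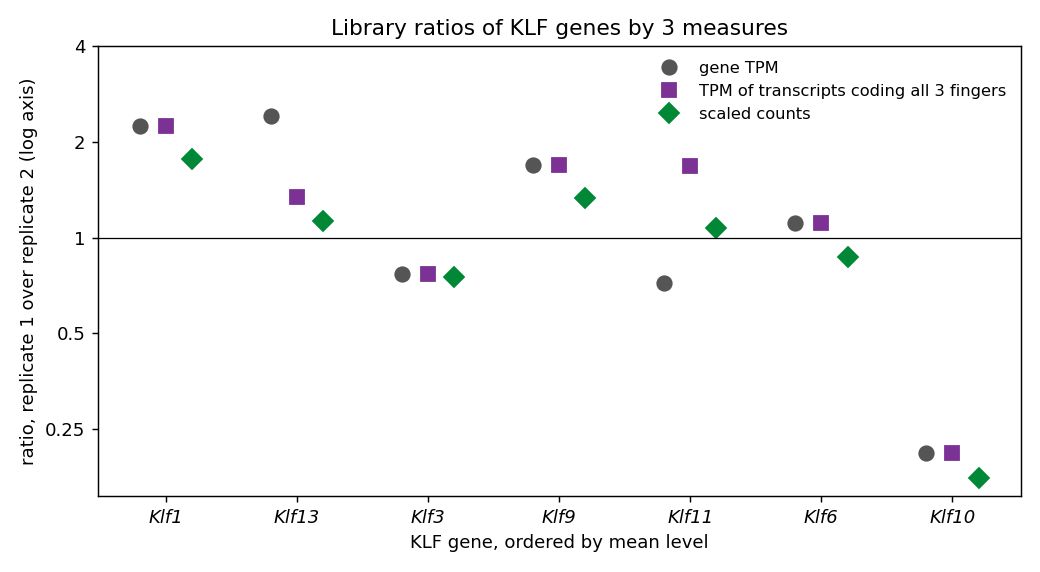
Ratio of replicate 1 over replicate 2 on a log axis for the 7 tested KLF genes by 3 measures: the gene's TPM, the TPM of transcripts that code for all 3 fingers, and scaled counts. The measures nearly coincide for Klf3 and Klf10, while for Klf13 (2.40, 1.34 and 1.13) and Klf11 (0.72, 1.68 and 1.07) they spread.

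The upstream sequences of Klf1 and Klf3 are shown because GATA1, the factor switched on here, and KLF1 act through GATA motifs and CACC boxes. They come from the RefSeq promoter table (build GRCm38.p6), cut at the GENCODE start of each gene, and lie at chr8:84901732-84901927 for Klf1 and chr5:64803271-64803387 for Klf3, both on the plus strand. Capitals mark matches on either strand to a GATA motif (AGATAA, with T also allowed as its first letter and G as its last) or to CCNCNCCC (CACC box), and overlapping matches run together.
Klf1 upstream: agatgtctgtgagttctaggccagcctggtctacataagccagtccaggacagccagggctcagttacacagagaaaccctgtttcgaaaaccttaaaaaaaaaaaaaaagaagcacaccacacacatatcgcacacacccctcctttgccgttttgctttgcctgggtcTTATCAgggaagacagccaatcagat
Klf3 upstream: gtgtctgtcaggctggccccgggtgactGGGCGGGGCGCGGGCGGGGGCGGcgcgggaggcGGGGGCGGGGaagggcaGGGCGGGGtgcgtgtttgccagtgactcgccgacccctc

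Klf1 had 1 GATA match, TGATAA on the minus strand at chr8:84901902-84901907, whose first base lies 26 bases before the GENCODE start and 80 bases before the RefSeq start. It had no CACC box match. Klf3 had no GATA match, and 7 overlapping or separate CACC box matches in the stretch shown. For Klf3, the stretch shown and the full window cover the upstream start only. The sequence before its downstream start, described above, was not searched. A GATA match there is thus not excluded, and CACC box matches there are not counted. In the full windows of 300 bases, available for 9 of the 10 members, GATA matches occurred in Klf1 and Klf2 and in 29.8% of all 32851 windows. CACC box matches numbered 10 in Klf3, 9 in Klf4, 5 each in Klf11 and Klf13, 4 in Klf2, 3 in Klf6, and 3 and 4 in the windows of Klf8, with none in Klf1 and Klf9. A CACC box match occurred in 49.5% of all windows. CANNTG (E-box) occurred once in Klf1 and in 72.3% of all windows. The genes richest in CCNCNCCC matches thus included Klf3 at 35.9 ± 6.69 TPM (SD, n = 2) and Klf4 at 0. This pattern also takes in GC-rich sites without the letters CACC. The windows held 76.7% G or C in Klf3, 74.3% in Klf4 and 77.7% in Klf11, against 51.3% in Klf1 and 63.3% in Klf9. These are matches of letters, not measured binding.

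Of the 7 other KLF genes, Klf16, which also recruits Sin3A, was the 1 above 1 TPM, beside 20.2% of all genes in both libraries. Klf16 had 78.37 TPM in replicate 1 against 50.11 TPM in replicate 2. By the mean of gene TPM, Klf16 lay between Klf13 and Klf3 in the order of levels. That place depended on the measure. Klf13-201, the Klf13 transcript with all 3 fingers, was lower than Klf16 in both libraries (63.02 and 47.06 TPM). Klf16 passed the exact binomial test as higher in replicate 1 (log2 ratio 0.30, adjusted p = 4.43e-27). Klf5 had 1 fragment in replicate 1 and 0 in replicate 2, and Klf7, Klf12, Klf14, Klf15 and Klf17 had none.

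The 9 SP genes code for factors with fingers like those of KLFs, and 4 of them were detected in both libraries, beside 20.2% of all genes. Sp2 had 83.32 TPM in replicate 1 and 55.95 TPM in replicate 2, and passed as higher in replicate 1 (log2 ratio 0.18). Sp3 had 27.94 and 11.99 TPM and also passed as higher in replicate 1 (log2 ratio 0.86), while Sp1, the general GC-box activator, had 4.81 and 20.43 TPM and passed as higher in replicate 2 (log2 ratio -0.68). Sp4 had 4.12 and 3.06 TPM, and its adjusted p in the exact binomial test was 0.361 with TMM and 0.00186 with total counts. Among all genes tested with TMM, 37.2% passed as higher in replicate 1 and 43.1% as higher in replicate 2. Sp5, Sp6 and Sp7 had at most 6 fragments in a library, and Sp8 and Sp9 had none.

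Genes for the cofactors and modifying enzymes of KLFs were present almost throughout. Of 20 such genes, 19 reached 1 TPM in both libraries, beside 20.2% of all genes. All 20 were tested, and 12 passed as higher in replicate 1 and 6 as higher in replicate 2. Among all genes tested, 37.2% and 43.1% passed in those directions, and 80.4% in either. The median log2 ratio of the 20 was 0.23, against -0.06 for all genes. Ctbp1, which codes for a corepressor of KLF3 and KLF8, had 451 TPM in replicate 1 against 264 TPM in replicate 2. It passed as higher in replicate 1 (log2 ratio 0.42). Ctbp2 had 41.51 and 46.10 TPM and Sin3a 4.73 and 4.59 TPM. Both passed as higher in replicate 2 on scaled counts, with log2 ratios of -0.79 and -0.71. The lowest of the 20 was Pias1, with 1.51 TPM in replicate 1 and 0.84 TPM in replicate 2.

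Erythroid genes known to be activated by KLF1 were mostly detected, and they passed in both directions between the libraries. Of the 26 genes listed, 25 were analysed here, Klf3 and Klf8 among them. In both libraries 22 reached 1 TPM, beside 20.2% of all genes, and all 22 of these were tested. By the exact binomial test 7 passed as higher in replicate 1 and 12 as higher in replicate 2. Among all genes tested, 37.2% and 43.1% passed in those directions. The median log2 ratio of the list was -0.29, against -0.06 for all genes tested. With total counts the split was 9 and 10, where 45% and 36.5% of all genes tested passed in those directions.

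The highest gene of that list was Hbb-bs, an adult beta-globin gene, with 863 TPM in replicate 1 and 9484 TPM in replicate 2 (log2 ratio of scaled counts -3.70). Blvrb, a heme-breakdown enzyme gene, had 727 and 1280 TPM, and the heme synthesis gene Alad had 115 and 430 TPM. With Hbb-bs, the largest ratios toward replicate 2 were those of the red cell adhesion gene Icam4 (6.38 TPM in replicate 1 and 56.25 TPM in replicate 2, log2 ratio -3.45) and of Hbb-bt, a second adult beta-globin gene (11.15 and 87.20 TPM, log2 ratio -3.27). Counts of Hbb-bs and Hbb-bt were not whole, so fragments were divided between similar genes and their split is uncertain.

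Toward replicate 1, the largest ratios were those of Tfrc, the transferrin receptor gene (86.49 TPM in replicate 1 and 20.62 TPM in replicate 2, log2 ratio 0.99), Nfe2, an erythroid transcription factor gene (92.08 and 45.82 TPM, log2 ratio 0.67), and Zbtb7a, a repressor of fetal globin (113 and 57.5 TPM, log2 ratio 0.53). Genes on 1 list that KLF1 is known to activate thus lay on both sides of 0 between the libraries. The lowest was Klf8, with no fragment.

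Of 6 trafficking and vascular genes known as targets of KLF2, only Itgb7 reached 1 TPM in both libraries, beside 20.2% of all genes. Itgb7 had 5.18 TPM in replicate 1 and 3.91 TPM in replicate 2. S1pr1 had 0.33 and 0.32 TPM, Ccr7 had 8 fragments in replicate 1 and 0 in replicate 2, and Thbd had none. Neither of the 2 tested genes passed with TMM.

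Of 13 genes of the TGF-beta pathway, which induces KLF10 and KLF11, 6 were detected in both libraries, beside 20.2% of all genes. The ligand gene Tgfb1 had 1306 TPM in replicate 1 and 713 TPM in replicate 2. Id1, a target gene, had 69.1 and 36.0 TPM, and the mediator gene Smad4 had 45.4 and 26.2 TPM. Tgfbr2, which codes for the type II receptor, had 1 fragment in replicate 1 and 0 in replicate 2. Of the 7 genes tested, 6 passed as higher in replicate 1 and 1, Skil, as higher in replicate 2 with 0.45 TPM in replicate 1 and 0.94 TPM in replicate 2. Among all genes tested 80.4% passed, 37.2% as higher in replicate 1.

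All 7 genes of the GATA1 complex were detected in both libraries, beside 20.2% of all genes. Beside Gata1, the factor genes Gata2 (374 TPM in replicate 1 and 271 TPM in replicate 2), Zfpm1 (2427 and 1438 TPM), Tal1 (119.6 and 79.1 TPM) and Lmo2 (1291 and 657 TPM) passed as higher in replicate 1, with log2 ratios of 0.10, 0.43, 0.86 and 0.68. Ldb1 (484 and 395 TPM) did not pass, at an adjusted p of 0.105 in the exact binomial test. Tcf3 (764 and 564 TPM) passed as higher in replicate 2 with TMM (log2 ratio -0.07) and as higher in replicate 1 with total counts (log2 ratio 0.10). Among all genes tested with TMM, 37.2% passed as higher in replicate 1 and 43.1% as higher in replicate 2. Among the genes of GATA1's partners, Zfpm1 and Lmo2 exceeded Klf1 in TPM in both libraries.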

How the data were processed

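Polyadenylated RNA of 2 libraries of 1 group was used, with a gene table and a transcript table each. Per the text deposited beside the tables, the assembly was mm10 and the annotation GENCODE M4. The aligner and quantifier were not given in the sources used here, and replicates were not pooled. The deposited expected counts are estimated fragments, not normalised. The deposited TPM and FPKM values are scaled by the authors to length and library, per the file headers. The deposited percent values give each transcript's part of its gene's TPM. The interval bounds of TPM, deposited as a signal with no stated level, are the authors'.

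Genes were called detected at 1 TPM. Expected counts were rounded. Genes with a summed count of at least 20 were tested with TMM library sizes (edgeR 4.0.16) by the exact binomial test. That test was tried on simulated data with known changes and counting noise only. Such data cannot show how it behaves under wider spread between libraries. Scaled counts are counts divided by the TMM library sizes, 2 being added as a prior count before ratios were taken. The quasi-likelihood test of edgeR could not be fitted to 1 library against 1. The smallest library had 31126956 counts, and 3 counts, the limit that a count of 0 allows, are 9.64e-06% of it and 5.19e-06% of the other. DESeq2 1.42.0 gave alternative size factors. Positions, transcript names and finger codons came from GENCODE M21 on GRCm38, so gene models may differ from those counted. The 10 genes, 7 gene lists and 8 marker lists were chosen with earlier results of these data known, and are no independent evidence. Named were all KLF and SP genes and GATA1 complex genes, the 3 highest and the lowest of other lists, and the 3 largest ratios in each direction among genes that KLF1 activates. Some genes that this rule names are not reported here. Other genes were chosen after their values were seen. Protein features were replaced by finger codons, as no protein table was used here.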

Additional observations from a re-analysis of the deposited data

How the results depend on the processing

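The count of detected KLF genes was 6, between 5 and 7 over a level of 0.5 or 5 TPM, posterior means, FPKM and leaving out either library, where it was 6 to 7. The mean family sum of 772 TPM was 498 to 1047 TPM with 1 library left out. The count beyond counting noise was 5, and 1 when a 2-fold difference was also required, which by construction keeps fewer genes. That count of 1 became 3 when ratios of TPM replaced ratios of scaled counts, an alternative chosen after seeing the data. The log2 ratio of Klf10 to Klf11 of -2.08 became -3.17 with a pseudocount of 0.1, -3.01 with expected counts, -1.27 on transcripts with 3 fingers and -1.42 with the length of the longest transcript, and was -2.28 to -1.87 with 1 library left out. The last 2 measures, added after seeing the data, gave -1.85 and -1.96 for Klf9 to Klf13, against -3.10. That of Klf1 to Klf3 was 3.08 to 4.61 with 1 library left out, and that of Klf9 to Klf13 -3.37 to -2.83. With the longest transcript's length the mean of Klf13 was 60.0 TPM and that of Klf11 3.47 TPM. Between the libraries, ratios of TPM, also added after seeing the data, reversed the log2 ratio of Klf6 (0.15, also on transcripts with 3 fingers, against -0.20 on scaled counts) and of Klf11 (-0.47 against 0.10). Total counts reversed Tcf3 (0.10 against -0.07) and Ldb1 (0.15 against -0.02). Tests between libraries could not be fitted with 1 library left out. No paired analysis was possible because there is 1 group.

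Low counts limit some values: Klf10 rests on 18 fragments in replicate 1, and Klf2, Klf4 and Klf8 on at most 3 in a library. The SD is that of 2 libraries with 1 biosample record, and whether it covers separate cultures is not known. The libraries differed beyond counting noise for 80.4% of all genes tested, which bears on every level given.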
